A study of Mus musculus with 61 samples.

Results

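Of the 61 single-cell libraries in the series, the 16 libraries of control granulosa cells are described here, split into the 8 with the most epithelial and the 8 with the most stromal balance of 10 transcripts. For each library the counts per 1000000 (CPM) of Krt8, Krt18, Krt19, Fst and Wt1 were summed, the CPM of Col1a1, Col1a2, Col3a1, Dcn and Pdgfra were summed, and the log2 ratio of the sums was taken after adding 1 CPM to each. The 8 libraries with the highest ratio are called high-ratio libraries and the other 8 low-ratio libraries. The members of each set were therefore chosen on measured expression, and the 10 rule genes are described without being counted as findings.

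Each library came from 1 cell of a postnatal day 5 ovary of a wild-type CD-1 mouse, an outbred stock, collected 6 hours after an intraperitoneal injection. The 16 control granulosa cells came from solvent-treated mice, and 13 further granulosa libraries, used below for comparison, came from mice given doxorubicin, an anti-cancer drug that damages DNA. All carry the same wild-type genotype label and the same batch label. No animal is named for any cell and the sets were chosen on expression, so no difference given here was tested, and the intervals given are 95% intervals for counting error only.

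Granulosa cells are the somatic cells that surround the oocyte, feed it through gap junctions and later make oestrogen and inhibins. In the newborn ovary they are epithelial: they sit inside a basement membrane and are linked to each other by junctions. The stroma outside the follicle holds mesenchymal cells that secrete fibrillar collagens and small proteoglycans such as decorin, together with theca precursors, smooth muscle cells, pericytes and vessels. Keratin 8 and keratin 18 pair as filaments of simple epithelia, follistatin binds and blocks activin, and WT1 is a transcription factor of the gonadal soma.

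The ratio ran without a clear break at the split from 5.82 in CS5 to -12.82 in CS13. From the top, the high-ratio libraries were CS5, CS7, CS9, CS11, CS1, CS3, CS12 and CS6, and the low-ratio libraries were CS4, CS10, CS8, CS14, CS15, CS16, CS2 and CS13. The last library inside the high-ratio set, CS6, stood at -0.06 and the first outside it, CS4, at -0.74, a gap of 0.68. The 13 doxorubicin granulosa libraries covered a similar span, from -8.81 to 8.29 with a median of -0.46. Control oocyte libraries ranged from -6.21 to 2.84 and doxorubicin oocyte libraries from -6.74 to 4.47, at epithelial sums of at most 32.3 CPM in control oocytes.

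The split rested more on the stromal than on the epithelial genes. The stromal sum was between 1.31 and 992 CPM in high-ratio libraries (median 338) and between 368 and 11379 CPM in low-ratio libraries (median 3709). In 5 of 8 high-ratio libraries it lay below that of every low-ratio library. The epithelial sum was between 121 and 1606 CPM in high-ratio libraries (median 866) and between 0.570 and 1074 CPM in low-ratio libraries (median 148), and only 2 of 8 high-ratio libraries exceeded every low-ratio library.

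**Figure D1:**
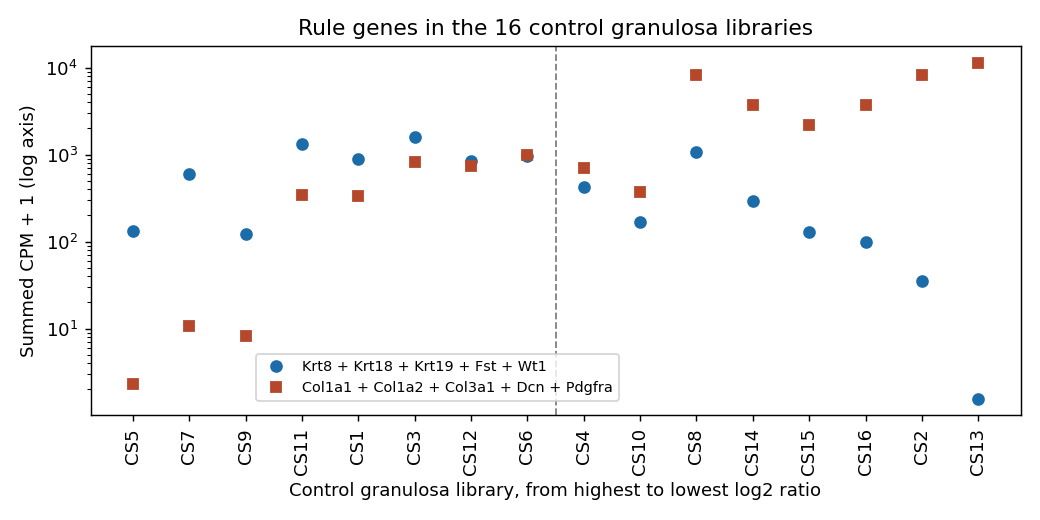
Summed CPM plus 1 of the 5 epithelial rule genes (circles) and the 5 stromal rule genes (squares) in each of the 16 control granulosa libraries, on a log axis, ordered by the log2 ratio of the sums; the dashed line separates the 8 high-ratio from the 8 low-ratio libraries. The squares span 1.31 to 11379 CPM, and the 3 libraries at the left end, CS5, CS7 and CS9, are set by stromal sums under 10 CPM, not by the largest epithelial sums.

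The keratins bore the label out in few libraries. At least 5 reads of Krt18 were present in 3 of 8 high-ratio libraries (CS11 at 201, CS3 at 642 and CS12 at 114 CPM) and in 0 of 8 low-ratio libraries. Krt19, another simple keratin, reached 5 reads in 2 high-ratio libraries, CS3 at 304 and CS1 at 75.3 CPM, and in 0 low-ratio libraries. Krt8 did so in 5 high-ratio and 3 low-ratio libraries. CS3 alone held 67.1% of the Krt18, 80.0% of the Krt19 and 36.7% of the Krt8 summed over the 16 libraries. In CS5, CS7 and CS9, at the top of the order, Krt18 and Krt19 were at 0 or at a single read.

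Follistatin supplied most of the epithelial sum in CPM, which is not corrected for transcript length. Fst made up more than 50% of it in 9 of 16 libraries, with a median share of 63.2% in high-ratio and 59.5% in low-ratio libraries, and reached 5 reads in 7 of 8 libraries of each set. Wt1 reached 5 reads in 8 high-ratio and 6 low-ratio libraries. Pdgfra, the receptor that marks many stromal cells, reached 5 reads in 0 high-ratio and 4 low-ratio libraries (CS15 at 62.6, CS16 at 279, CS2 at 812 and CS13 at 606 CPM). Dcn was between 0.149 and 368 CPM (median 40.4) in high-ratio and 64.9 and 6112 CPM (median 1724) in low-ratio libraries. Col3a1 reached 5 reads in 6 and 8 libraries and Col1a2 in 6 and 7. The sets are therefore named by the ratio here, not as epithelial and stromal cells.

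Total counts were 6834594 to 13403764 per library. The median number of detected genes was 9529.5 in high-ratio and 8131.5 in low-ratio libraries. After thinning each library to 1000000 counts the medians were 7551 and 6431, so the median was lower in low-ratio libraries at equal depth. The thinned ranges overlapped, at 5399 to 8597 in high-ratio and 4149 to 9037 in low-ratio libraries. The highest value was in CS15, a low-ratio library, and CS3 was the lowest of the high-ratio libraries. Several libraries stood apart. CS3 was low in Inha (1.45 CPM) and carried pericyte transcripts, CS15 and CS16 carried smooth muscle actin, and CS8, CS14 and CS13, all low-ratio, carried oocyte-list sums of 17530.0, 9885 and 5225 CPM against at most 2465 CPM in high-ratio libraries. No pair of control granulosa libraries held counts that agree within sampling noise.

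Leaving out the rule genes, 11806 genes reached 5 CPM in one set or the other. For each, counts summed over the high-ratio libraries, as CPM of their summed totals, were divided by the same value for the low-ratio libraries. A gene was counted as higher in a set where the log2 ratio was at least 1 in its favour with every library left out in turn. This held for 1554 genes in high-ratio libraries (13.2%) and 1085 in low-ratio libraries (9.19%), while the median over all measured genes was 0.03. A set under 3 counts was set to 3, so a gene held almost wholly by 1 library could still be counted through a few reads elsewhere. Kcnj8, with 99.97% of its summed CPM in CS3, had a log2 ratio of 1.20 without CS3 and was counted. Asking in addition for 50 CPM or more in the higher set, with 5 reads or more in 6 of its 8 libraries, left 401 and 195 genes. Without the 3 libraries above 4000 CPM of smooth muscle and pericyte genes (CS3, CS15 and CS16) the counts were 2225 and 950, and without the 3 libraries above 5000 CPM of oocyte genes they were 1594 and 1004.

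Complete separation of the sets was rare, and with 1 library left out it was met by 1 to 5 genes in one direction and 1 to 4 in the other. In 1 gene (0.00847% of those measured) every high-ratio library exceeded every low-ratio library, and in 1 gene (0.00847%) the order was the other way. The first was Spag5, a mitotic spindle protein, which had no read in any low-ratio library. It was at 440.0 CPM in CS6, 307 in CS5 and 117 in CS1, but between 0.0746 and 0.184 CPM in the other 5 high-ratio libraries, which is a few reads and is not read as expression. The second was Fbln5, which encodes fibulin-5, a secreted protein that organises elastic fibres. Whether 1 gene in each direction is more than another split of these libraries would give over this many genes was not tested.

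Fbln5 was detected with at least 5 reads in all 8 low-ratio libraries and in 1 high-ratio library. It stood at 103 CPM in CS4, 337 in CS10, 924 in CS8, 3.66 in CS14, 153 in CS15, 70.7 in CS16, 857 in CS2 and 1015 in CS13. In high-ratio libraries it was at 0 in CS5, CS7, CS1, CS3 and CS12, at 0.184 in CS9, 1.11 in CS11 and 0.300 CPM in CS6. The log2 ratio was -11.20 (interval -11.96 to -10.54) and stayed between -12.61 and -10.91 as each library was left out.

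The gap junction gene Gja1 was counted as higher in high-ratio libraries and was detected with at least 5 reads in all 16 libraries. Gja1 encodes connexin 43, the channel protein that couples granulosa cells to each other. It was between 44.4 and 1434 CPM (median 718) in high-ratio libraries and between 0.970 and 587 CPM (median 161) in low-ratio libraries, with CS3 at 44.4 CPM the lowest of the high-ratio libraries. The ranges overlapped, and the log2 ratio was 1.67 (interval 1.65 to 1.70; 1.47 and 1.98 leaving out each library).

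The 250 bases before the annotated start site of Gja1 and Fbln5 are shown. Gja1 was the junction gene seen in every library, and Fbln5 was the gene without overlap on the low-ratio side. Sequences and positions are from RefSeq on GRCm38.p6, the assembly that matches the mm10 build named in the submitters' processing notes. The Gja1 window is chr10:56377050-56377299 on the plus strand, upstream of a gene that spans chr10:56377300-56390419. The Fbln5 window is chr12:101819120-101819369 on the minus strand, upstream of a gene that spans chr12:101746565-101819119, and is the first of 2 windows listed for it. Capitals mark matches to any of the 7 motifs searched on both strands. These were the NR5A type site CAAGGTCA, the forkhead type site TGTTTAC, the TEAD type site GGAATGT, the AP-1 type site TGANTCA, the CCAAT box, the TATA box as TATAAA and the GC box as GGGCGG.
Gja1: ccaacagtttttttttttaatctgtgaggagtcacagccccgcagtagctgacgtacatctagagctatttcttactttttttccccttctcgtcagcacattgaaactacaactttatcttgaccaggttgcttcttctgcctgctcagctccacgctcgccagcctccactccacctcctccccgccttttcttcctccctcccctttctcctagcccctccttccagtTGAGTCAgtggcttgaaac
Fbln5: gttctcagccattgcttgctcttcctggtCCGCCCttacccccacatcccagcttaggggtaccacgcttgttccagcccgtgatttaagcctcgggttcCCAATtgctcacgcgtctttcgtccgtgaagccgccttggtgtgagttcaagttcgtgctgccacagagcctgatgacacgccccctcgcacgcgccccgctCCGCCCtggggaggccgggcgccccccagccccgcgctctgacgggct
In Gja1 the capitals are a TGANTCA match 19 bases before the start site. In Fbln5 they are CCAAT 150 bases before it and GGGCGG on the other strand 221 and 48 bases before it.

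The same motifs were counted in promoters of the genes higher in either set and of all measured genes, with no test. CCAAT occurred in 38.2% of the 300-base windows of genes higher in high-ratio libraries, 38.5% of those of genes higher in low-ratio libraries, 38.0% of those of measured genes and 37.4% of all windows in the table. GGGCGG occurred in 62.5%, 60.0%, 63.5% and 35.7% in the same order. TGANTCA occurred in 4.56%, 5.72%, 4.76% and 7.81%. TGTTTAC occurred in 3.60%, 1.78%, 2.59% and 3.65%, and CAAGGTCA in 1.03%, 0.562%, 0.942% and 1.56%. GGAATGT occurred in 2.63%, 3.19%, 2.65% and 3.85%, and TATAAA in 7.33%, 7.40%, 7.07% and 13.6%. A match is a description of letters and not a site.

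Of 23 measured members of the granulosa list, 10 were counted as higher in high-ratio libraries and 0 in low-ratio libraries, beside 13.2% and 9.19% of all measured genes. The 10 were Inha, Inhbb, Amh, Fshr, Kitl, Hsd17b1, Nr5a2, Rspo1, Gja1 and Fam13a, and the list median log2 ratio was 0.29, with 18 of 23 members above 0. The summed CPM of the list was 978 to 15480.1 in high-ratio libraries (median 9335) and 728 to 7798 in low-ratio libraries (median 2296). In 6 of 8 high-ratio libraries it exceeded that of every low-ratio library, and the exceptions were CS3 and CS12. The median was 0.16 without CS8 and 1.04 without CS4 or CS10, and 10 members were counted in the main order against 5 with keratins alone set against collagens alone.

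Inha, which encodes the inhibin alpha subunit, supplied the largest part of this sum of CPM, which is not corrected for transcript length. It was at 7409.9 CPM in CS5, 4093 in CS7, 4405 in CS9, 7536 in CS11, 8671 in CS1 and 10830.4 in CS6, but at 348 in CS12 and 1.45 in CS3. Low-ratio libraries were between 0.305 and 5697 CPM (median 498), and CS15 at 5697 CPM was well above the next of them, CS4 at 1439 CPM. The log2 ratio was 2.37 (interval 2.36 to 2.38; 2.10 and 3.20 leaving out each library). With keratins alone set against collagens alone in the rule, it was 0.77.

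Inhbb, the beta B subunit that pairs with it, reached 5 reads in 6 high-ratio libraries (0 to 231 CPM, median 25.2) and in 1 low-ratio library, CS15 at 2.67 CPM, a log2 ratio of 7.65. Amh, the anti-Müllerian hormone of growing follicles, was between 0 and 155 CPM (median 12.5) in high-ratio and between 0 and 8.38 CPM (median 0.160) in low-ratio libraries, a log2 ratio of 4.64. Its highest values were in CS5 (155 CPM) and CS1 (108 CPM). Fshr, the receptor for follicle-stimulating hormone, reached 5 reads in 5 high-ratio libraries and in CS15 alone among low-ratio libraries, at 108 CPM, a log2 ratio of 2.92. CS15 thus carried the highest Inha, Inhbb and Fshr of the low-ratio libraries.

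Kitl, the ligand by which granulosa cells signal to the KIT receptor of oocytes, was found with 5 reads in 8 high-ratio and 4 low-ratio libraries and had a log2 ratio of 1.49. Hsd17b1, an enzyme of oestradiol synthesis, stood at a log2 ratio of 1.66. Nr5a2, an orphan nuclear receptor of granulosa cells, stood at 1.67 and Fam13a at 2.07. Rspo1, a secreted activator of WNT signalling, had at least 5 reads in 6 high-ratio libraries, with CS3 highest at 208 CPM, and none in low-ratio libraries. Against a floor of 3 counts over the low-ratio set, its log2 ratio was at least 10.36.

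Of the 13 members not counted, 6 were close to equal, a group chosen after their values were seen. Foxl2 had a log2 ratio of 0.07, Gata4 of 0.01, Nr5a1 of 0.26, Esr2 of 0.13 and Amhr2 of 0.03, and the secreted WNT ligand gene Wnt4 had 0.06. Amhr2, the AMH receptor, was between 164 and 1931 CPM (median 489) in high-ratio libraries and between 0.0814 and 1825 CPM (median 311) in low-ratio libraries, where CS2 and CS13 were at 0.152 and 0.0814 CPM. These were also the libraries with the lowest ratios and with the 2 highest stromal sums.

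Hsd3b1, which encodes the enzyme that converts pregnenolone to progesterone, was also higher in high-ratio libraries, although it was listed with theca and steroidogenic genes. It was between 0.806 and 8055 CPM (median 2923) in high-ratio and between 0.229 and 1776 CPM (median 53.1) in low-ratio libraries, a log2 ratio of 2.95. CS11, CS5, CS7 and CS1 were the highest and CS3 was at 0.806 CPM. The theca genes Cyp17a1 and Insl3 were at 0 in all 16 libraries. Of the 6 measured members of that list, 2 were counted as higher in high-ratio libraries (Hsd3b1 and Gli3) and 1 in low-ratio libraries (Gli2, which rested on 1 library). The shares among all measured genes were 13.2% and 9.19%, and the list median was -1.30.

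**Figure D2:**
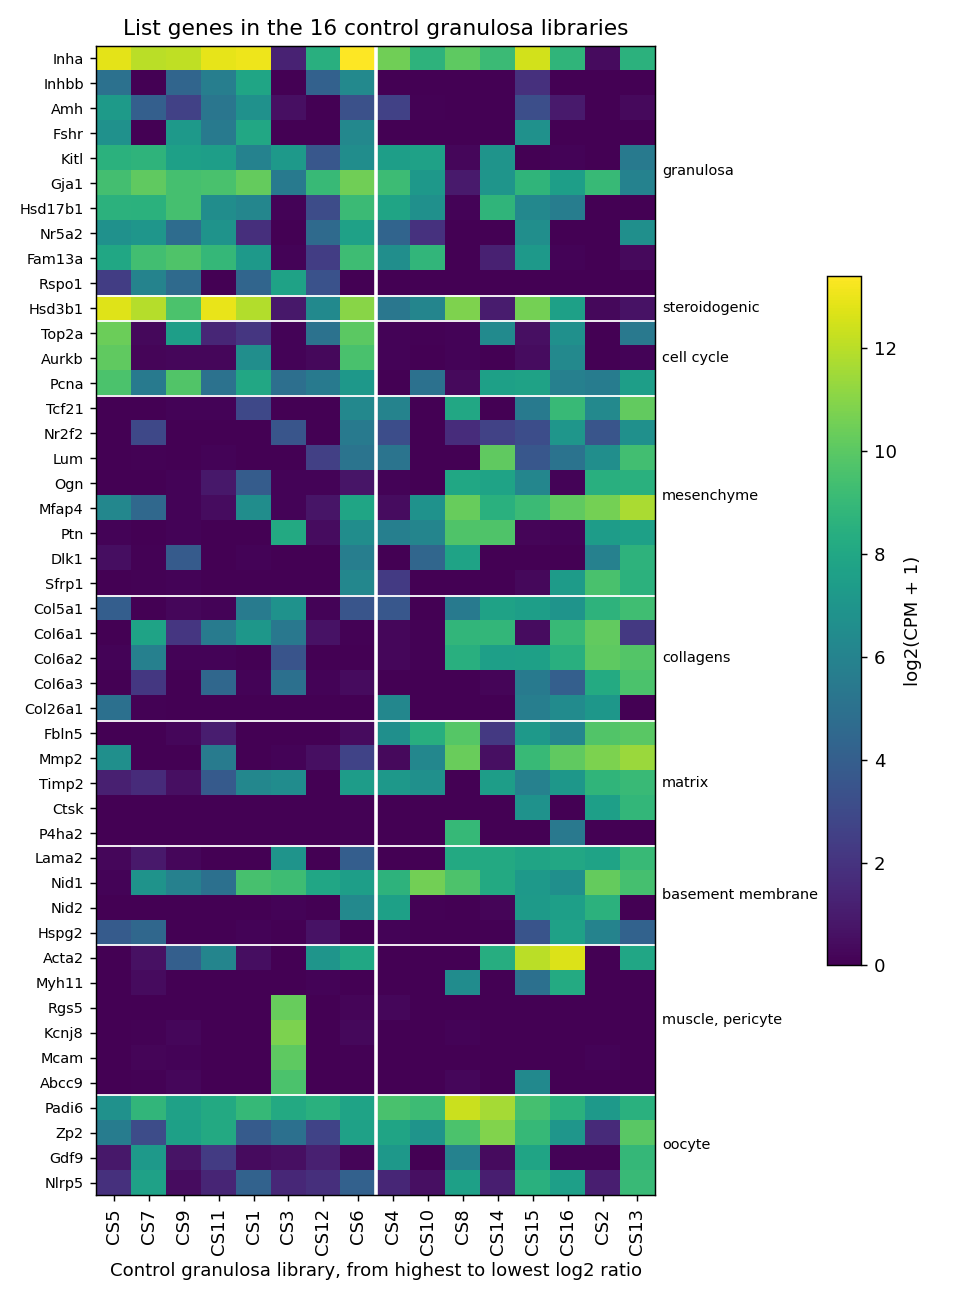
log2(CPM + 1) of list genes (rows, grouped by list, a selection made after their values were seen) in the 16 control granulosa libraries (columns, from the highest to the lowest ratio; the white vertical line separates the sets). Inha, Gja1 and Hsd3b1 are bright in most high-ratio columns and Mfap4, Mmp2 and Fbln5 in most low-ratio columns. Rgs5, Kcnj8 and Mcam are bright almost only in CS3, and Abcc9 is highest there with a next highest library at 80.4 CPM.

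Of 21 measured members of the mesenchyme list, 0 were counted as higher in high-ratio and 8 in low-ratio libraries, beside 13.2% and 9.19% of all measured genes, with a median log2 ratio of -1.43 and 15 of 21 below 0. The summed CPM was 519.7 to 5498 in high-ratio libraries (median 763) and 1144 to 8958 in low-ratio libraries (median 3350.0). CS3 had the highest sum of the high-ratio set, and the 2 highest sums of all were in CS2 and CS13. Without CS6 the list median was -2.36.

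Mfap4, a protein of elastic microfibrils, was between 0.0806 and 231 CPM (median 11.4) in high-ratio and between 0.347 and 3387 CPM (median 832) in low-ratio libraries, a log2 ratio of -4.30 (-5.41 and -3.73 leaving out each library). In CS4 it was at 0.347 CPM, a few reads, below 6 of the high-ratio libraries. Tcf21, a transcription factor of gonadal and other mesenchyme, reached 5 reads in 2 high-ratio libraries, CS6 at 75.5 and CS1 at 6.61 CPM, and in 6 low-ratio libraries up to 1173 CPM in CS13, a log2 ratio of -4.64. The nuclear receptor gene Nr2f2, which marks interstitial cells, had -2.08.

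The small proteoglycan genes Lum and Ogn had log2 ratios of -5.14 and -6.56. Lum peaked in CS14 at 1113 CPM and was at 0 in CS10 and CS8, so it did not mark every low-ratio library. The secreted factors Ptn, Dlk1 and Sfrp1 had -2.15, -3.35 and -4.10. With the 3 libraries above 5000 CPM of oocyte genes left out, Ptn was at -0.24 and Dlk1 at -0.92. Vim, the intermediate filament gene of mesenchyme, was detected in all 16 libraries and had -1.28, and was not counted because the ratio fell under 1 in size with 1 library left out. Pdgfrb and Postn, at 1.48 and 3.32, were above 0 through CS3, which held 1313 and 2003 CPM.

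Of 17 measured genes of other collagens, 3 were counted as higher in high-ratio and 5 in low-ratio libraries, beside 13.2% and 9.19% of all measured genes. The list median was -0.16 (-0.94 without CS3 and 0.43 without CS10). The collagen VI chains, which form beaded filaments around mesenchymal cells, had log2 ratios of -2.56 (Col6a1), -5.39 (Col6a2) and -4.44 (Col6a3). Col6a2 was between 0 and 56.7 CPM (median 0.0897) in high-ratio and between 0.0752 and 1085 CPM (median 272) in low-ratio libraries, with CS4 and CS10 among the lowest at 0.174 and 0.0752 CPM. Col5a1 had -3.08 and Col26a1 -3.61. The basement membrane collagens Col4a1 and Col4a2 were near equal at 0.11 and 0.02, and Col4a5 was higher in high-ratio libraries at 2.29. Col4a6 was counted as higher too, with 96.7% of its summed CPM in CS3.

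Of 23 measured genes of matrix assembly and remodelling, 2 were counted as higher in high-ratio libraries and 5 in low-ratio libraries, with a median of -0.81. Among all measured genes the shares were 13.2% and 9.19%. Mmp2, a gelatinase that cleaves collagen, was between 0 and 100.4 CPM (median 0.266) in high-ratio and between 0.260 and 2712 CPM (median 813) in low-ratio libraries, a log2 ratio of -5.71, with CS13, CS2, CS8 and CS16 the highest and CS4 and CS14 at a few reads. Its inhibitor gene Timp2 had -2.15. Ctsk, the collagen-degrading cathepsin K, had 1 count in high-ratio libraries and 9060 in low-ratio libraries, at least 5 reads in 3 of the latter. Thbs1 and Fbln2 were higher in high-ratio libraries at 1.45 and 5.71. Sparc, a collagen-binding glycoprotein gene with at least 5 reads in all 16 libraries, had 0.08.

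Genes of the basement membrane, the sheet that surrounds the follicle, were also on the low-ratio side. Of 10 measured, 0 were counted as higher in high-ratio and 4 in low-ratio libraries, with a median of -0.83. Among all measured genes the shares were 13.2% and 9.19%. Nid1, a linker of laminin and collagen IV, was between 0.0875 and 736 CPM (median 148) in high-ratio and between 102 and 1494 CPM (median 546) in low-ratio libraries, a log2 ratio of -1.55. Lama2, the laminin chain of mesenchyme and muscle, had -3.52 and was at 0 in CS4 and CS10 but between 219.6 and 518 CPM in the other 6 low-ratio libraries. Nid2 and Hspg2 had -3.44 and -3.07. Lama1, a laminin chain of early epithelia, had 1.00 the other way and was not counted. Without CS3 the list median was -2.01.

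Of 17 measured members of the epithelial junction and polarity list, 5 were counted as higher in high-ratio libraries and 4 in low-ratio libraries. The shares among all measured genes were 13.2% and 9.19%, and the list median was 0.09. The median depended on the libraries used: it was 1.84 without CS10, -0.35 without CS7, 1.25 without the 3 libraries above 5000 CPM of oocyte genes, and 2.18 with the 5 highest against the 5 lowest ratios. Tjp1, a tight junction scaffold gene, had 1.95 and reached 5 reads in 8 high-ratio and 3 low-ratio libraries. The desmosome genes Dsc2 and Pkp2 had 3.39 and 2.22. Epcam and Cldn1 were higher in low-ratio libraries at -4.06 and -4.54, each with 5 reads in only 2 of them, and Perp had 4 such libraries and 3 counts in all in the high-ratio set. Cdh1, the epithelial cadherin, reached 5 reads in 1 library.

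Genes of the ovarian surface epithelium gave little signal. Msln, Muc16, Gpm6a and Cldn15 were at 0 in all 16 libraries, and 4 of the 12 listed members were measured. In high-ratio and low-ratio libraries 0 and 1 of these were counted as higher (the latter Lhx9), beside 13.2% and 9.19% of all measured genes. Aldh1a1, which makes retinoic acid, was in 7 and 6 libraries with at least 5 reads and had a log2 ratio of 0.56. The list median was -2.87 but 0.36 without CS8, the only library with 5 reads of Krt7.

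Markers of other cells moved with single libraries. Of the smooth muscle and pericyte list (10 of 12 members measured), 2 were counted as higher in each set, beside 13.2% and 9.19% of all measured genes. Kcnj8 was at 1737 CPM, Rgs5 at 1260.2, Mcam at 1099, Abcc9 at 787 and Des at 547 in CS3. The next highest library was at most 0.225 CPM for the first 3 of these, 80.4 for Abcc9 and 6.35 for Des. All these are pericyte or muscle genes, and CS3 was also low in Inha. Acta2, smooth muscle actin, was at 6692 CPM in CS16 and 4094 in CS15 and at most 331 in the other 14 libraries. The list sum ran from 0.433 to 5679.9 CPM in high-ratio and from 0 to 7101 CPM in low-ratio libraries, the list median was 2.34, and it was -3.03 without CS3. The 2 members counted in high-ratio libraries, Des and Kcnj8, were 0 or 1 without any of CS2, CS3, CS4, CS6, CS9 or CS10, and the 2 in low-ratio libraries, Acta2 and Myh11, were 1 without CS15 or CS16. The part of these libraries in the differences between the sets was not tested beyond leaving them out.

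Endothelial genes were low throughout: the list sum was 0 to 455 CPM in high-ratio and 0 to 298 CPM in low-ratio libraries, Tie1 was at 0 in all 16, and 0 and 1 of 7 measured members were counted (Egfl7). Among blood and immune genes Ptprc, C1qb, C1qc, Csf1r, Lyz2 and Laptm5 were at 0 in all 16 libraries, and 1 of 3 measured members was counted (Cd68, in high-ratio libraries). For both lists the shares among all measured genes were 13.2% in high-ratio and 9.19% in low-ratio libraries.

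Oocyte transcripts were higher in low-ratio libraries. The list sum was 448 to 2465 CPM in high-ratio libraries (median 1405) and 583 to 17530.0 CPM in low-ratio libraries (median 2717), and 5 low-ratio libraries exceeded every high-ratio library. Of 14 measured members, 0 were counted as higher in high-ratio and 4 in low-ratio libraries, with a median of -1.39. Among all measured genes the shares were 13.2% and 9.19%. Padi6, of the cytoplasmic lattices of the oocyte, was at 5203 CPM in CS8 and 3088 in CS14, and between 108 and 508 CPM (median 279) in high-ratio libraries. Without the 3 libraries above 5000 CPM the list median was 0.50 and the count on the low-ratio side was 0. That count was 2 without CS13 or without CS15. With the 3 libraries left out, the mesenchyme list median was -1.04 and the granulosa list median 0.14. Whether such a library holds RNA of more than its 1 labelled cell was not tested.

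**Figure D3:**
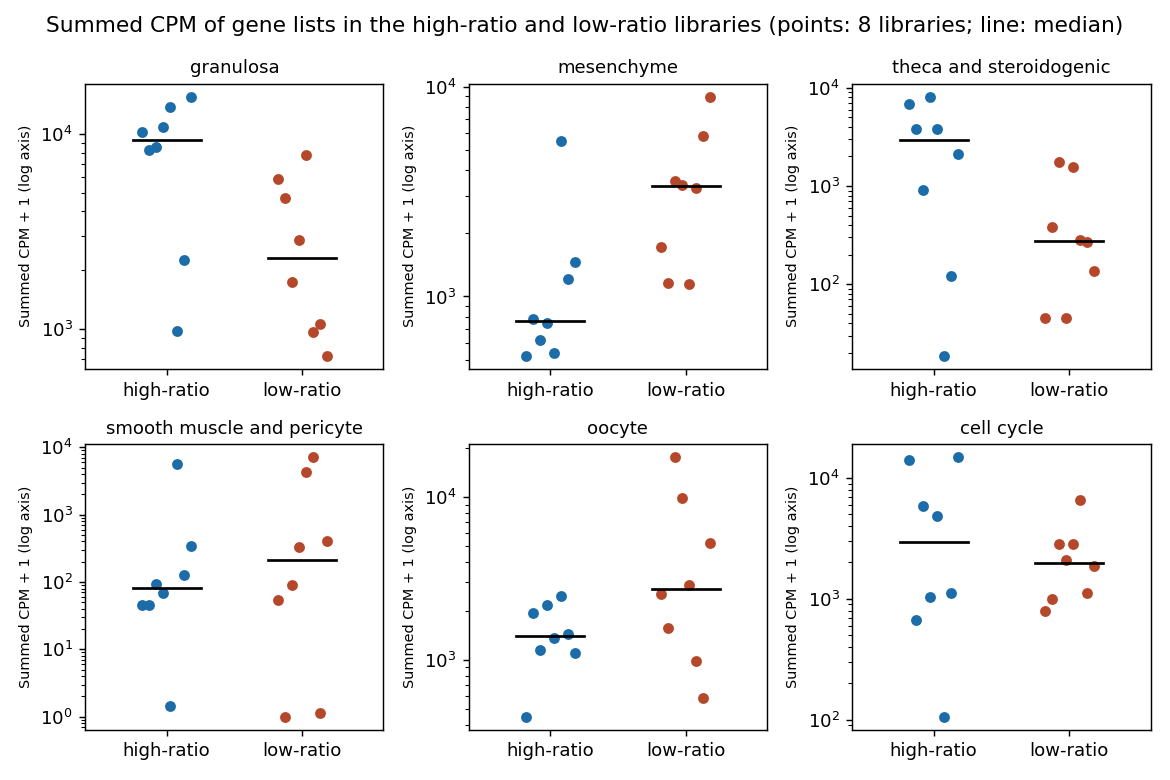
Summed CPM plus 1 of 6 gene lists in the 8 high-ratio (left in each panel) and 8 low-ratio libraries (right), on log axes; points are libraries and lines are medians. The granulosa medians are 9335 and 2296 CPM and the mesenchyme medians 763 and 3350.0 CPM, while the smooth muscle and pericyte panel is spread over the whole axis in each set.

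Cell cycle genes were mostly above 0 but through few libraries. Of 26 measured members, 24 had a log2 ratio above 0, the median was 1.31, and 3 were counted as higher in high-ratio libraries (Top2a, Aurkb and Pcna) and 0 in low-ratio libraries, a share near the 13.2% of all measured genes. The median was 0.83 without CS6 and 2.38 without CS16. Top2a, which untangles DNA at mitosis, was at 1365 CPM in CS5, 1036 in CS6 and 182 in CS9 and at most 105 CPM elsewhere. Aurkb, a mitotic kinase, was at 1139 in CS5 and 755 in CS6 and at most 95.9 CPM elsewhere. The list sum was highest in CS6 and CS5, at 14848 and 14248 CPM, and lowest in CS3, at 105 CPM. The count was 0 without CS5, 5 without CS8, 6 without CS1, 7 without CS12, 8 without CS11, 9 without CS3, 9 without CS7, 18 without CS16, and 19 without CS3, CS15 and CS16 together. With keratins alone set against collagens alone in the rule, the list median was -0.24.

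Among genes of TGF-beta, BMP and activin signalling, 5 of 23 measured members were counted as higher in high-ratio and 2 in low-ratio libraries. The shares among all measured genes were 13.2% and 9.19%, and the list median was 0.22 (-0.36 without CS3). Smad3, which carries the activin and TGF-beta signal to the nucleus, had at least 5 reads in 7 and 3 libraries, was between 0.0806 and 431 CPM (median 91.6) in high-ratio and between 0 and 32.8 CPM (median 0.0848) in low-ratio libraries, and had a log2 ratio of 4.65. The receptors Bmpr2, Acvr2a and Tgfbr1 had 1.75, 3.51 and 1.88. Tgfbr3, the co-receptor betaglycan, was on the other side at -1.79, as was the BMP target Id2 at -3.27. Id1 and Id3, targets of the same pathway, had 0.24 and -0.39 and were not counted.

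Notch genes gave 2 counted on each side of 11 measured, beside 13.2% and 9.19% of all measured genes, and a median of -0.59. Counted were Jag2 and Nrarp in high-ratio libraries and Jag1 and Maml1 in low-ratio libraries. Each had at least 5 reads in at most 4 libraries of the higher set. The Notch median was 0.74 without CS10 and 5.56 with the 5 highest against the 5 lowest ratios. Of 19 immediate early genes, 0 and 2 were counted, beside the same 13.2% and 9.19%, with a median of -0.51. These were Fosl2 at -2.27 and Zfp36, an mRNA decay factor, at -2.28. Zfp36 was between 40.3 and 381 CPM (median 206) in high-ratio and between 264 and 2616 CPM (median 639.8) in low-ratio libraries. Fos, Jun and Egr1 had -0.44, -0.54 and -0.11.

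Ranked by the smallest ratio left when any 1 library was removed, the 12 leading genes of each set were of mixed function. On the low-ratio side Gpx3, a secreted glutathione peroxidase, was between 0 and 0.217 CPM (median 0.0403) in high-ratio and between 0 and 983 CPM (median 169.6) in low-ratio libraries, absent or at a few reads in CS4 and CS8, a log2 ratio of -12.38. Cdh11, the cadherin of mesenchyme, had -8.78 and Igfbp6, a secreted binder of insulin-like growth factors, had -5.77 with 5 reads in all 8 low-ratio libraries and in CS7. Grb10 and Glul had -7.81 and -5.35. Ercc5, a DNA repair endonuclease gene, had -6.02, Chfr, a mitotic checkpoint gene, had -5.04, and Spats2 had -8.15. Mmp2, Col6a2, Lum and Fbln5, given above, complete these 12.

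On the high-ratio side Cdca7l had a log2 ratio of 10.73, with at least 5 reads in 6 high-ratio and 0 low-ratio libraries, and the lipid hydrolase gene Abhd6 had 10.73 with the same numbers of libraries. Lpl, lipoprotein lipase, was between 0 and 315 CPM (median 105) in high-ratio and between 0 and 21.5 CPM (median 0.0997) in low-ratio libraries, a log2 ratio of 5.14. Msh6, of mismatch repair, had 5.54, and the topoisomerase gene Top3b 5.11. Zfp783, Hsdl1, Fam160b2, Hspa4l, Nfatc3, Saal1 and Prdm2 had log2 ratios from 5.71 to 10.31. None of the 12 was on the granulosa list.

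Similarity between libraries was higher within the high-ratio set. The median Spearman correlation across genes was 0.503 over the 28 pairs within the high-ratio set, 0.398 over the 28 pairs within the low-ratio set and 0.432 over the 64 pairs between them. The most similar library lay in the same set for 8 of 8 high-ratio and 3 of 8 low-ratio libraries. A single high-ratio library, CS7, was the most similar one for several libraries of both sets. Among these were CS3 at 0.421, CS4 at 0.521 and CS15 at 0.574. The 8 of 8 thus rested in part on CS7. The rule genes were left out of these values, but the number of genes detected enters them. The first principal component held 14.4% of the variance. It had a Spearman rho of 0.92 with the number of genes detected and of 0.50 with the ratio over the 16 libraries.

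The granulosa and mesenchyme sums ran against each other over the 16 libraries, with Spearman rho -0.82 and Pearson r -0.89 on the log2 scale. Each library's sums share its total and its number of detected genes, with which the granulosa sum had rho 0.62 and the mesenchyme sum -0.63. In the 13 doxorubicin granulosa libraries the same 2 sums had rho -0.14 and r -0.13.

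The same ratio was then used to order the 13 doxorubicin granulosa libraries, which the choice of the control sets did not use and which share no library with them. The 6 highest were divided by the 6 lowest and the middle library, DS6, was left out. Of 1347 genes higher in control high-ratio libraries and measured there, 740 (54.9%) had a log2 ratio above 0, against 52.5% of all 10407 genes, and 33.7% reached 1, against 25.3%. In the opposite direction 26.7% of them were at -1 or lower, against 23.9% of all genes. Of 893 genes higher in control low-ratio libraries, 41.0% were above 0, against the same 52.5%. Of these 893, 38.7% were at -1 or lower, against 23.9%, and 25.1% reached 1, against 25.3%.

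All 8 mesenchyme members counted in control libraries were below 0 in the doxorubicin order, 6 of them with every library left out, and the list median was -2.06. With collagens, matrix and basement membrane genes added, this was 22 of 22 members, 18 of them with every library left out. Above 0 were 52.5% of all genes and 41.0% of all genes higher in control low-ratio libraries. The same rule genes, collagens among them, set both orders. Genes that vary with them can follow both orders, so the 22 are not independent support for the split. Leaving out a library asked only that the sign stay the same. The library sums differed less than the members. The mesenchyme sum had medians of 1236 CPM in the 6 highest and 1434 CPM in the 6 lowest doxorubicin libraries, with overlapping ranges of 586 to 1345 and 708 to 6648 CPM. The matrix assembly and remodelling sum had medians of 4546 and 4859 CPM. Both sums were highest in DS13, at 6648 and 12944 CPM, and DS15, also among the 6 lowest, carried 34796 CPM of blood and immune genes. Fbln5 was at -9.90 there against -11.20 in control, Cdh11 at -9.10, Mfap4 at -5.46 and Mmp2 at -3.55. Gpx3 at -0.67 and Igfbp6 at -0.19 were under 1 in size.

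Of the 10 granulosa members counted as higher in control high-ratio libraries, 2 were above 0 in the doxorubicin order, against 52.5% of all genes, Inha at 0.55 and Gja1 at 0.34. Fshr was at -3.81, Inhbb at -2.96, Kitl at -2.20 and Hsd17b1 at -5.43, and the list median was -0.68. The granulosa sum, to which Inha gave the largest part in control libraries, still had the higher median in the 6 highest libraries, 6626 CPM against 2150 CPM, with ranges of 1285 to 10508 and 1320 to 12721 CPM. Hsd3b1 was at -3.23. The difference between the control and doxorubicin orders was not tested. Treatment and the choice of cells cannot be told apart between them. The oocyte-list sum, of 1229.9 to 18216 CPM in the 6 highest and 390.0 to 47447 CPM in the 6 lowest doxorubicin libraries, reached higher values than in the control libraries.

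**Figure D4:**
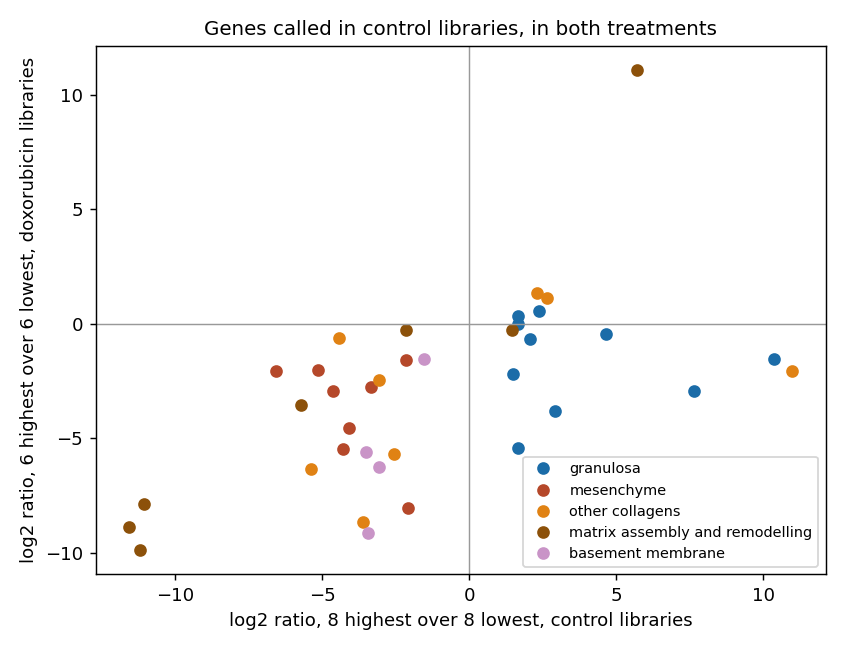
log2 ratio of the 8 high-ratio over the 8 low-ratio control libraries (x axis) against that of the 6 highest over the 6 lowest doxorubicin granulosa libraries (y axis), for members of 5 lists counted as higher in either control set and measured in both treatments. The 22 mesenchyme, collagen, matrix and basement membrane points left of 0 all lie below 0 on the y axis, and of the 10 granulosa points only 2 lie above it.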

How the data were processed

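Single cells were made into full-length cDNA libraries with a low-input kit, per the labels' protocols. The authors deposited 1 table of estimated counts, 34.0% of whose nonzero values are not whole numbers, with 23927 gene rows and 61 library columns, all used. The submitters' processing notes name Partek, Bowtie2, HISAT2, DESeq2 and mm10; the counting step and annotation are not given in the sources used here. Counts were rounded. Symbols turned into dates (22 rows, 0.144% of counts) stayed in the totals and were not named.

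The members and gene lists were chosen with earlier results of these data known. CPM used each library's total. The log2 ratio compares counts summed over 8 libraries, a set under 3 counts being set to 3, with an exact conditional binomial (Clopper-Pearson) 95% interval for counting error only, since PCR reads are not independent molecules. Named genes were the rule genes, up to 12 per set (at least 50 CPM and 5 reads in 6 of 8 libraries, ranked by the smallest ratio leaving out each library), and list members beside their list's count. The list members named were not a choice by abundance. They include members counted as higher in a set, and several of the lists' highest by CPM, such as Mcm6 and Hey1, were not named. The calculation was run on simulated counts drawn around a common profile. That cannot show how it performs on single cells that differ as much as these. No test between sets was made, since each library is 1 cell and no animal is named. Alternatives were other ways to combine libraries, TMM and DESeq2 scaling of the summed sets, other minimums (none, 20 CPM), 5 against 5 libraries, keratins against collagens, and leaving out libraries. Promoters of 9061 of 11806 measured genes were found by symbol. Python 3.11.15, numpy 2.4.6, pandas 2.3.3, scipy 1.17.1, matplotlib 3.10.9, R 4.3.3, edgeR 4.0.16 and DESeq2 1.42.0 were used.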

Additional observations from a re-analysis of the deposited data

Results flagged for a closer look

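The medians of the 16 gene lists and the up to 12 leading genes of each set were searched for a difference between treatments. In 4 of these results the control and the doxorubicin order lay on opposite sides of 0, each with every library left out in turn. Other list members, such as Fshr and Hsd17b1, were not part of this search. The differences were not tested. The granulosa list median was 0.29 in control and -0.68 in doxorubicin libraries. The endothelium list median was -2.90 and 8.38, over 7 and 3 measured members. Lpl had log2 ratios of 5.14 in control and -1.28 in doxorubicin libraries, and Ercc5 of -6.02 and 2.52.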

How the results depend on the processing

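No paired analysis was possible because every comparison lies within 1 labelled group and comes from no test. By library medians, 630 genes were higher in low-ratio libraries, the granulosa list median was 2.16, the theca and steroidogenic median 0.12 and Epcam 0.16. With 5 against 5 libraries, 110 and 81 of 11280 measured genes did not overlap (higher in high-ratio and low-ratio libraries). Fewer libraries make it easier for any gene not to overlap. Such counts therefore cannot be set against the 1 and 1 of 11806 genes in the full sets. In the same setting the granulosa and mesenchyme medians were 2.18 and -2.73, and the same-direction shares in doxorubicin libraries 52.18% and 62.34%. The surface epithelium median was 2.23, the smooth muscle and pericyte median -4.57, the Notch median 5.56 and the epithelial junction median 2.18. Kcnj8 and Nrarp were at -0.07 each. Without libraries above 5000 CPM of oocyte genes, 7 and 11 of 11688 measured genes did not overlap. The surface epithelium and oocyte medians were then 0.55 and 0.50. With keratins against collagens, 2 of 11802 measured genes did not overlap (higher in high-ratio libraries). The surface epithelium median was then 0.62, cell cycle -0.24, Lhx9 0.48, Col8a1 -0.32 and Spag5 -0.31. Leaving out libraries above 4000 CPM of smooth muscle and pericyte genes was an alternative chosen after seeing the data. There 34 and 6 of 11544 measured genes did not overlap, and that list's median was -0.40. The surface epithelium median was 0.40 with no minimum CPM and 0.36 without CS8, the theca median 0.58 at 20 CPM, and the smooth muscle median -3.03 without CS3. The cause was not tested in any of these. Leaving out each library gave 1371 to 1870 and 966 to 1220 genes higher in high-ratio and low-ratio libraries, 1 to 5 and 1 to 4 without overlap, granulosa medians of 0.16 to 1.04, mesenchyme medians of -2.36 to -1.26, surface epithelium medians of -3.47 to 0.36, smooth muscle medians of -3.03 to 6.03, and same-direction shares of 53.8% to 55.83% and 56.17% to 60.43%. TMM scaling, computed on the summed counts of each set, gave 1535 and 1104 genes, and DESeq2 size factors computed likewise gave 1541 and 1095. These factors lay between 0.991 and 1.009, so the counts could hardly move. Scaling of single libraries was not tried. Over 97 named or listed genes counted as higher in a set, 6 of 2522 values under alternatives changed sign and 50 fell under 1 in size. Of these 50, 25 came from library medians. Many of the 2522 values could not fail. Leaving out each library is part of how a gene was counted, other CPM minimums leave its ratio unchanged, and the scaling factors were near 1. The 2522 values are therefore no measure of how stable the genes were. A single read is about 0.1 CPM and was not read as expression.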
